A study of Mus musculus with 8 samples.

Results

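The genes described here make the ribosome: subunits of RNA polymerase I, proteins of the small nucleolar ribonucleoprotein particles (snoRNPs), abundant nucleolar proteins and processing factors of the small and the large ribosomal subunit. They were chosen by name from a list of 39 gene symbols and followed across 8 RNA-seq libraries of mouse satellite cells, which are muscle stem cells. This list and the other gene lists used below were chosen with earlier results of these data known. Their counts beside all tested genes therefore describe the lists and are no independent test of them. The deposited table of 24328 symbols held 38 of the 39, and Noc2l is not analysed here. All 38 reached at least 1 FPKM in at least 2 libraries and were among the 12515 genes tested. FPKM is a fragment count corrected for transcript length and for the size of the library, so levels of different genes can be set side by side.

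Ribosome production begins in the nucleolus, where RNA polymerase I transcribes a long precursor of the mature ribosomal RNAs. Box C/D snoRNPs guide ribose methylation of this RNA and box H/ACA snoRNPs guide its pseudouridylation, while helicases, scaffold proteins and assembly factors cut, fold and load it with ribosomal proteins. Resting stem cells make few ribosomes, and growth signals raise these genes together, in many cell types through the transcription factor Myc. Satellite cells rest in uninjured muscle and enter the cell cycle after injury.

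The cells came from C57BL/6 mice aged 2 months and were sorted from skeletal muscle as Vcam-positive cells without CD31, CD45 or Sca-1, with 2 libraries in each of 4 groups. PFA-perfused libraries came from Pax7-nGFP mice perfused with PFA, a fixative, before the muscle was taken apart, and PBS-perfused libraries from Pax7-nGFP mice perfused with PBS, a salt buffer. Unperfused libraries came from wild type mice without perfusion, and injury-activated libraries from wild type mice without perfusion 2.5 days after an injury whose kind the labels do not give. RNA of the fixed cells was purified with a miRNeasy FFPE kit after a first digestion with Collagenase II at 2000 U/mL, and RNA of unfixed cells with NucleoSpin RNA XS. Fixation, RNA kit and digestion therefore separate the PFA-perfused libraries from all others, and genotype separates both perfused groups from both wild type groups, so these factors cannot be told apart from the groups. No label ties the 2 libraries of a group to separate mice, so the p-values reflect no more than the spread between libraries, and that spread may be technical. Where values of single libraries are given, replicate 1 comes before replicate 2.

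The libraries summed to 461454 to 582336 FPKM. Levels of the tested genes correlated within pairs of libraries at r = 0.979 with PFA, 0.972 with PBS, 0.981 unperfused and 0.997 after injury, across genes, which are not independent replicates. The 2 injury-activated libraries stood closest: no ribosome biogenesis gene differed between them by more than 8.32%. In the unperfused group, replicate 1 lay above replicate 2 for all 38 genes, with a median log2 gap of 0.72, where 67.1% of all tested genes did so with a median gap of 0.15. Satellite cell markers (Pax7, Myf5, Vcam1, Calcr, Cdh15 and Itga7) summed to 1130 to 1148 FPKM with PFA, 651 to 717 with PBS, 1668 to 2898 unperfused and 503 to 513 after injury. The unperfused sum was mostly Myf5, at 1261 and 2598 FPKM against 311 and 229 with PFA. Pax7, the transcription factor that defines satellite cells, stood at 328 and 567 FPKM with PFA, 48.3 and 79.6 with PBS, 19.8 and 20.4 unperfused and 4.59 and 4.4 after injury. On the log2(FPKM + 1) scale Pax7 (-4.36), Cdh15 (-2.01) and Calcr (-1.46) were called lower in unperfused than in PFA-perfused cells, the Calcr call being lost after trimmed mean scaling (-0.28). Myf5 (2.76) and Itga7 (0.99) were called higher, and the part of these shifts in the results below was not tested. Each of the 6 markers was above 0 in every group. In such bulk libraries, fewer cells of a type and less RNA per cell cannot be told apart.

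Ribosome biogenesis genes took a small share of the transcriptome in PFA-perfused satellite cells and a larger one in every other group. Their summed level was 0.344% and 0.317% of all FPKM with PFA, 0.688% and 0.639% with PBS, 1.01% and 0.661% unperfused and 2.09% and 2.14% after injury. All FPKM includes the ribosomal RNA precursor Rn45s, which lowers the share of other genes where it is high. Rn45s was 9.8% and 19.4% of all FPKM with PFA, 0.893% and 6.64% with PBS, 0.0285% and 0.0266% unperfused and 0.356% and 0.363% after injury. Npm1 alone stood at 6026 and 6199 of the summed 11467 and 11787 FPKM after injury, against 558.3 and 584.5 of 1970 and 1845 with PFA. The level of Npm1 is uncertain, for a reason given below. The median gene stood at 24.4 and 21.6 FPKM with PFA, 41.3 and 42.5 with PBS, 55.9 and 34.8 unperfused and 75 and 73.1 after injury. The PFA-perfused libraries held the lowest medians and the injury-activated libraries the highest, while unperfused replicate 2 lay below both PBS-perfused libraries and unperfused replicate 1 above both.

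None of the 38 genes had its highest group mean in the PFA-perfused group, where 41.2% of all tested genes had theirs. The injury-activated mean was the highest for 22 genes (57.9%, against 29.1% of all tested genes), the PBS-perfused mean for 11 (28.9% against 16.7%) and the unperfused mean for 5 (13.2% against 13.1%). The PFA-perfused mean was the lowest for 25 genes (65.8%), where it was the lowest for 13% of all tested genes. After trimmed mean scaling, which sets the trimmed mean log ratio of each library to a reference library to 0, it was the lowest for 34 genes (89.5% against 27.2%). Under that scaling the injury-activated mean was the highest for 22 genes (57.9% against 34.9%) and the PFA-perfused mean for 0 (against 23%). The PBS-perfused mean was then the highest for 6 (15.8% against 17.5%) and the unperfused mean for 10 (26.3% against 24.7%). These counts describe group means and carry no test.

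**Figure D1:**
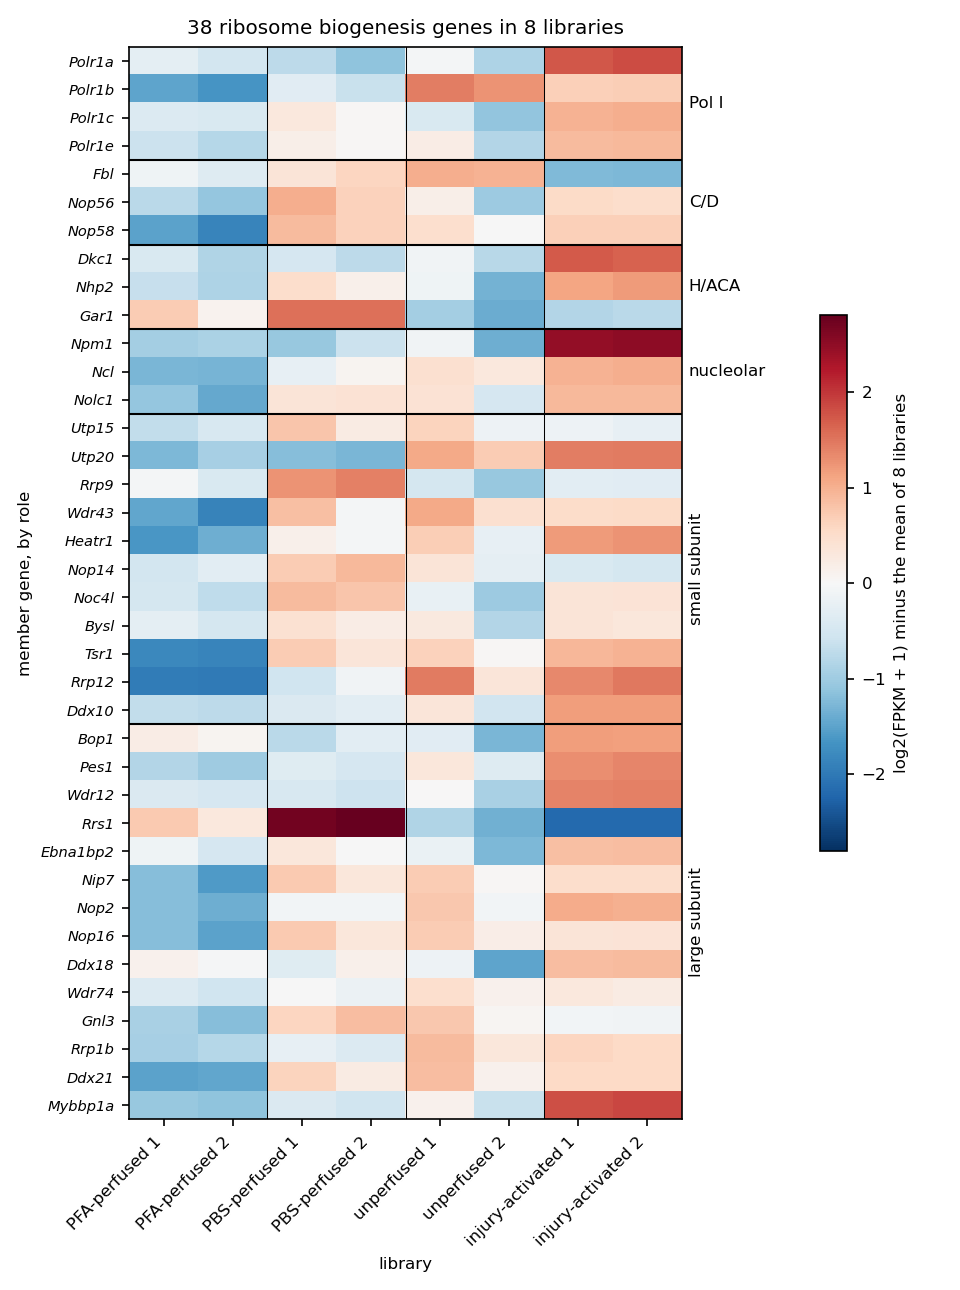
Each row is one of the 38 ribosome biogenesis genes, ordered by role, and each column one of the 8 libraries; colour gives log2(FPKM + 1) minus the gene's mean over all libraries, red above and blue below it. The 2 PFA-perfused columns are mostly blue and the 2 injury-activated columns mostly red, with Fbl, Gar1, Rrs1, Rrp9 and Nop14 among the exceptions in the injury-activated columns.

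Myc acts on many of these genes by binding the E-box CACGTG, so the promoters were searched for these 6 letters, which read the same on both strands. RefSeq promoter sequences on GRCm38.p6, running from 250 bases before to 50 bases after the annotated start, matched 34 of the 39 symbols, and 6 of these held the motif (17.6%). The share was 21.3% among 89 other genes of the pathway, 11.8% among the tested symbols with a promoter entry and 8.09% over all symbols in the promoter table. Bop1, Fbl, Npm1, Rrp12 and Rrs1 had no entry. The windows around the 6 matches are shown because these genes carry the letters through which Myc is known to bind, with CACGTG in capitals:
Mybbp1a: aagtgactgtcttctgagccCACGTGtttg
Nop2: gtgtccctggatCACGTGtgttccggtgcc
Pes1: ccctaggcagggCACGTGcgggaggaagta
Tsr1: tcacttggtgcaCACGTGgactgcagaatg
Utp20: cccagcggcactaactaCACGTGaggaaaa
Wdr43: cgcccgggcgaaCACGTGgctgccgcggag
They lie at chr11:72441347-72441376 on the plus strand, chr6:125131811-125131840 on the plus strand, chr11:3963965-3963994 on the plus strand, chr11:74898092-74898121 on the plus strand, chr10:88826765-88826794 on the minus strand and chr17:71616220-71616249 on the plus strand, in that order. The motif began 60 bases before the start in Nop2 and 3 to 41 bases after it in the other 5 promoters. A match describes the letters in this window and not the binding of a factor.

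Groups were compared by log2 fold changes, the difference between the mean log2(FPKM + 1) of the first and the second group, given with their standard error (SE). A gene was called higher or lower at a Benjamini-Hochberg adjusted p under 0.05 over the 12515 tested genes, in 1 limma fit of the 8 libraries. Myc RNA was high in the PBS-perfused and unperfused libraries and low both in the PFA-perfused and in the injury-activated libraries. Its levels were 9.33 and 8.04 FPKM with PFA, 124 and 134 with PBS, 96.4 and 102 unperfused and 11.9 and 9.61 after injury. The 4 PBS-perfused and unperfused libraries stood above all others without overlap, and the log2 fold change over PFA-perfused was 3.75 (SE 0.20, adjusted p = 6.5e-06) for PBS-perfused and 3.38 (SE 0.20, adjusted p = 1.8e-06) for unperfused. In the injury-activated libraries Myc was lower than in PBS-perfused, with a log2 fold change of -3.47 (SE 0.20, adjusted p = 1.2e-06) and lower than in unperfused, at -3.10 (SE 0.20, adjusted p = 2.5e-06). Against PFA-perfused it was not called, at 0.27 (SE 0.20, adjusted p = 0.251), and trimmed mean scaling gave 0.98 with an adjusted p of 0.00191, a call. The median ribosome biogenesis gene, by contrast, was highest in the injury-activated libraries.

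Max, the partner with which Myc binds the E-box, had levels of 15.8 and 10.9 FPKM with PFA, 3.46 and 13.9 with PBS, 13.1 and 14.1 unperfused and 49.8 and 53.7 after injury. Both injury-activated libraries stood above the other 6, and Max was higher there than in PFA-perfused by 1.90 (SE 0.47, adjusted p = 0.00479) and than in PBS-perfused by 2.69 (SE 0.47, adjusted p = 6.4e-04). Mycn, a close relative of Myc, was low throughout, at 3.41 and 2.41 FPKM with PFA, 4.07 and 3.4 with PBS, 0.994 and 2.42 unperfused and 0.12 and 0.0448 after injury. Its injury-activated libraries were the lowest, with a log2 fold change against PFA-perfused of -1.84 (SE 0.26, adjusted p = 1.6e-04). The symbol Rn45s, the ribosomal RNA precursor that RNA polymerase I makes, had 56137 and 112870 FPKM with PFA, 4730 and 36839 with PBS, 137 and 123 unperfused and 1952 and 2000 after injury. PFA-perfused libraries held the most and unperfused libraries the least, and Rn45s was lower than in PFA-perfused, at -9.25 (SE 0.82, adjusted p = 1.1e-05) in unperfused and at -5.33 (SE 0.82, adjusted p = 3.0e-04) in injury-activated libraries. For PBS-perfused the fold change was -2.59 (SE 0.82, adjusted p = 0.0207), and the call was lost after trimmed mean scaling (adjusted p = 0.0766). That call was also lost without PFA-perfused replicate 2 (-2.09) or PBS-perfused replicate 1 (-1.11). The labels give polyA RNA as the molecule, and the precursor is not a polyadenylated messenger RNA, so how much of it the selection kept is not known.

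**Figure D2:**
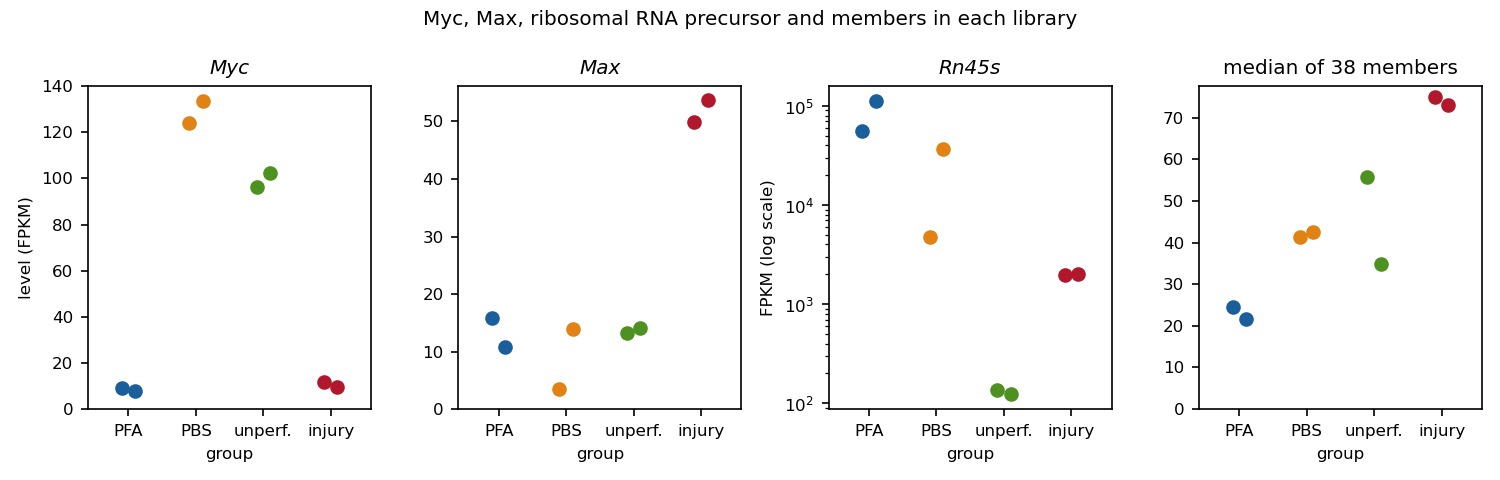
Points give the level in FPKM of Myc, Max, Rn45s (log axis) and the median of the 38 ribosome biogenesis genes in each library, by group on the x axis. Myc lies between 96.4 and 134 FPKM in the PBS-perfused and unperfused libraries and at 11.9 FPKM or below in the others, while the median gene is highest in the injury-activated libraries.

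RNA polymerase I was represented by its largest subunit Polr1a, the second largest Polr1b, the subunit Polr1c that it shares with RNA polymerase III, and Polr1e of the heterodimer that aids initiation and elongation. Polr1a and Polr1b together form the catalytic centre, yet their RNAs peaked in different groups. Polr1a stood at 48.1 and 40.3 FPKM with PFA, 34.2 and 26 with PBS, 55.5 and 31.4 unperfused and 196 and 209 after injury. The injury-activated libraries lay far above the other 6, among which the unperfused pair overlapped with both perfused groups. Polr1b stood at 18.4 and 16 FPKM with PFA, 42.2 and 34.1 with PBS, 145 and 127 unperfused and 84.4 and 86.1 after injury. Here the unperfused libraries were the highest, the 4 groups did not overlap, and the PFA-perfused libraries were the lowest. As a share of Polr1b, Polr1a was 262% and 252% with PFA, 81% and 76.1% with PBS, 38.1% and 24.7% unperfused and 232% and 243% after injury. Polr1c had group means of 14.1 ± 0.304, 21.6 ± 3.11, 11.2 ± 3.99, 39.2 ± 0.931 FPKM (SD, n = 2) in the order PFA, PBS, unperfused and injury. Polr1e had 4.19 ± 0.538, 8.0 ± 0.589, 6.25 ± 3.52, 14.7 ± 0.225 FPKM in the same order, so both were highest after injury.

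Box C/D snoRNPs hold the methyltransferase Fbl (fibrillarin) and the paired scaffold proteins Nop56 and Nop58. Fbl stood at 28.1 and 23.6 FPKM with PFA, 39.5 and 47.2 with PBS, 63.1 and 61.5 unperfused and 12.5 and 12.3 after injury. Its order ran against that of most ribosome biogenesis genes: unperfused libraries were highest, injury-activated libraries lowest, and no 2 groups overlapped. Nop58 stood at 12.2 and 9.34 FPKM with PFA, 67.9 and 57.6 with PBS, 50.6 and 36.2 unperfused and 58.7 and 58.8 after injury. Both PFA-perfused libraries lay below all others, and the PBS-perfused and injury-activated libraries overlapped. Nop56 stood at 70.8 and 55.9 FPKM with PFA, 242 and 188 with PBS, 134 and 58.8 unperfused and 175 and 169 after injury. PBS-perfused libraries were highest, and the unperfused pair spanned from near the PFA-perfused level to 134 FPKM. Fbl as a share of Nop58 was 230.5% and 253% with PFA, 58.2% and 81.9% with PBS, 125% and 169.8% unperfused and 21.3% and 20.9% after injury, and as a share of Nop56 it was 39.7% and 42.3% with PFA, 16.3% and 25.1% with PBS, 47% and 105% unperfused and 7.12% and 7.26% after injury. Both shares were lowest in the injury-activated libraries.

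Box H/ACA snoRNPs hold the pseudouridine synthase Dkc1 (dyskerin) with Nhp2 and Gar1. Dkc1 stood at 44.2 and 32.7 FPKM with PFA, 43 and 35.9 with PBS, 55.6 and 34.6 unperfused and 199 and 191 after injury. The 2 injury-activated libraries lay above the other 6, which overlapped between groups. Gar1 stood at 5.91 and 3.56 FPKM with PFA, 11.4 and 11.4 with PBS, 1.19 and 0.617 unperfused and 1.42 and 1.52 after injury. It was highest in the PBS-perfused libraries and near 1 FPKM in the unperfused and injury-activated libraries, which did not overlap with either perfused group. Nhp2 had group means of 16.4 ± 1.86, 35.6 ± 6.45, 18.3 ± 10.7, 64.1 ± 2.67 FPKM (SD, n = 2) in the order PFA, PBS, unperfused and injury. Gar1 as a share of Dkc1 was 13.4% and 10.9% with PFA, 26.6% and 31.7% with PBS, 2.13% and 1.78% unperfused and 0.713% and 0.797% after injury. Scaling by a single factor per library does not move this ratio, but quantile normalization and correction for GC content and length can. Nhp2 as a share of Dkc1 was 40.05% and 46.1% with PFA, 93.4% and 86.5% with PBS, 46.5% and 31% unperfused and 31.3% and 34.5% after injury. Both shares were highest in the PBS-perfused libraries, and the Gar1 share did not overlap between any 2 groups.

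**Figure D3:**
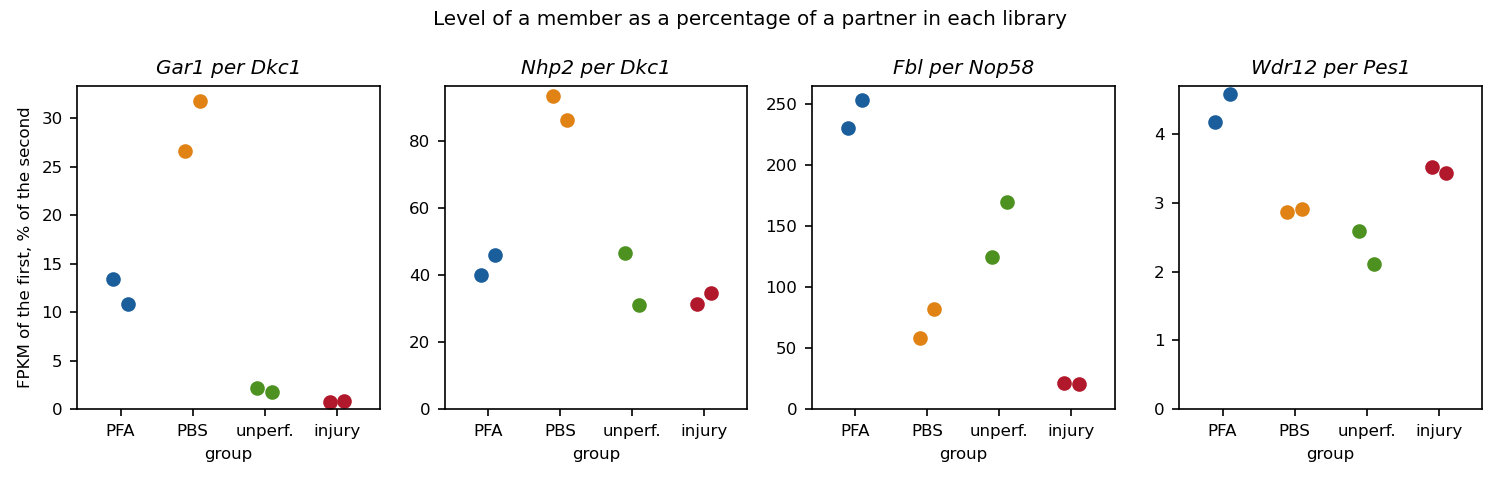
Points give, in each library, the FPKM of a protein's RNA as a percentage of that of a partner in the same particle, for Gar1 and Nhp2 over Dkc1, Fbl over Nop58 and Wdr12 over Pes1, by group on the x axis. Gar1 over Dkc1 is highest in PBS-perfused libraries (26.6% and 31.7%) and Fbl over Nop58 in PFA-perfused libraries (230.5% and 253%), and both are lowest in injury-activated libraries.

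Npm1 (nucleophosmin), an abundant nucleolar chaperone that also serves ribosome export, had the highest group mean of the 38 genes in each group. It stood at 558 and 584 FPKM with PFA, 518 and 716 with PBS, 1013 and 421 unperfused and 6026 and 6199 after injury. Both injury-activated libraries were far above the other 6, among which the unperfused pair held both the highest and the lowest value. The mouse genome carries several near-identical processed copies of Npm1, and how reads shared with them were assigned is not given in the sources used here, so this level is uncertain. Ncl (nucleolin), which binds the nascent precursor, stood at 218 and 215 FPKM with PFA, 453 and 560.3 with PBS, 725 and 650.0 unperfused and 1038 and 1084 after injury. Its groups did not overlap, and they ran from PFA-perfused through PBS-perfused and unperfused to injury-activated. Nolc1, a chaperone of snoRNPs, had group means of 22.3 ± 3.81, 71.5 ± 0.933, 56 ± 23.7, 103 ± 0.412 FPKM (SD, n = 2) in the order PFA, PBS, unperfused and injury.

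The small subunit processing factors belong to the large complex that forms on the leading end of the precursor or act on the later small subunit precursor. Tsr1, a factor of the late small subunit precursor, stood at 39.5 and 38 FPKM with PFA, 229 and 178 with PBS, 220.0 and 144 unperfused and 268 and 277 after injury. PFA-perfused libraries lay below all others, and the unperfused and PBS-perfused pairs overlapped. Rrp12, which acts in late maturation and export, stood at 2.6 and 2.57 FPKM with PFA, 8.49 and 12.1 with PBS, 37.4 and 16.8 unperfused and 35 and 38.1 after injury. PFA-perfused libraries were the lowest and PBS-perfused libraries next, and the unperfused pair overlapped with the injury-activated pair. Utp20, a very large scaffold protein, stood at 14.8 and 19.1 FPKM with PFA, 15.5 and 14.7 with PBS, 79.1 and 62 unperfused and 102 and 104 after injury. PFA-perfused and PBS-perfused libraries overlapped at the low end, with unperfused libraries higher and injury-activated libraries the highest.

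Rrp9, a protein of the U3 snoRNP, stood at 14.5 and 11 FPKM with PFA, 37.5 and 42 with PBS, 10.5 and 6.68 unperfused and 12.2 and 12 after injury. The PBS-perfused libraries stood above all others. Wdr43, an early small subunit factor, stood at 60.2 and 44.8 FPKM with PFA, 303 and 163 with PBS, 352 and 229.8 unperfused and 240.0 and 243 after injury. Its PFA-perfused libraries were lowest, and the 3 other groups overlapped. Heatr1, which is needed for RNA polymerase I transcription and early processing, stood at 10.8 and 13.2 FPKM with PFA, 39.1 and 34.1 with PBS, 58 and 30.3 unperfused and 82.2 and 86.6 after injury. PFA-perfused libraries were lowest and injury-activated libraries highest. Noc4l stood at 8.92 and 7.51 FPKM with PFA, 24.5 and 22.8 with PBS, 11 and 5.86 unperfused and 16.9 and 17.1 after injury, with the PBS-perfused pair above all others. Nop14, its partner in the small subunit precursor, stood at 24.6 and 28.9 FPKM with PFA, 58.9 and 68 with PBS, 46 and 29.9 unperfused and 26.3 and 25 after injury, again with the PBS-perfused pair highest. Utp15 had group means of 5.76 ± 0.816, 13.4 ± 3.85, 11.2 ± 4.57, 7.72 ± 0.358 FPKM (SD, n = 2), Bysl 5.32 ± 0.65, 9.27 ± 1.16, 6.28 ± 3.72, 9.38 ± 0.311 and Ddx10, an RNA helicase, 31.8 ± 0.702, 41.7 ± 2.28, 51.7 ± 21.9, 121 ± 0.382, in the order PFA, PBS, unperfused and injury. Ddx10 was highest in the injury-activated libraries, without overlap.

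Of the large subunit factors, Rrs1, an assembly factor of the early precursor, had the widest span of the 38 genes. It stood at 17.2 and 12.3 FPKM with PFA, 69.3 and 74.8 with PBS, 5.05 and 3.27 unperfused and 1.4 and 1.37 after injury. The 4 groups did not overlap, with PBS-perfused at the top and injury-activated at the bottom. Mybbp1a, a nucleolar protein that binds Myb and acts in ribosomal RNA synthesis, stood at 34 and 32.3 FPKM with PFA, 54.5 and 49.1 with PBS, 78.3 and 46.4 unperfused and 255 and 269 after injury. Its injury-activated libraries lay far above the rest, PFA-perfused libraries were lowest, and the unperfused pair spanned the PBS-perfused pair. Bop1, Pes1 and Wdr12 form one complex (PeBoW) that the large subunit precursor needs. Bop1 stood at 38.8 and 35.1 FPKM with PFA, 19.4 and 27.1 with PBS, 26.7 and 13.2 unperfused and 77.1 and 75.9 after injury. Pes1 stood at 311 and 275 FPKM with PFA, 438 and 396 with PBS, 686 and 426 unperfused and 1361 and 1427 after injury. Wdr12 stood at 13 and 12.6 FPKM with PFA, 12.6 and 11.5 with PBS, 17.8 and 8.97 unperfused and 48 and 48.9 after injury. All 3 were highest in the injury-activated libraries, without overlap. As a share of Pes1, Wdr12 was 4.18% and 4.58% with PFA, 2.87% and 2.91% with PBS, 2.59% and 2.11% unperfused and 3.52% and 3.43% after injury, and Bop1 was 12.5% and 12.8% with PFA, 4.44% and 6.84% with PBS, 3.89% and 3.1% unperfused and 5.66% and 5.32% after injury. As a share of Ebna1bp2, with which it is known to interact, Rrs1 was 33.2% and 30.4% with PFA, 98.3% and 133% with PBS, 10.2% and 14.3% unperfused and 1.38% and 1.32% after injury.

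Nip7, an early large subunit factor, stood at 14.3 and 10.7 FPKM with PFA, 57.2 and 43 with PBS, 56.2 and 35 unperfused and 48.7 and 48.2 after injury, with the PFA-perfused pair below all others and the 3 remaining groups overlapping. Rrp1b, a nucleolar protein of the large subunit precursor, stood at 24.2 and 26.7 FPKM with PFA, 40.4 and 35.9 with PBS, 88.4 and 59 unperfused and 72.9 and 70.2 after injury. Unperfused and injury-activated libraries overlapped above both perfused groups. The remaining factors follow as group means in FPKM with SD (n = 2), in the order PFA, PBS, unperfused and injury. Nop2, a ribosomal RNA methyltransferase, had 37.6 ± 3.52, 87.7 ± 0.412, 123 ± 48.8, 188 ± 2.69. Ddx21, an RNA helicase at the ribosomal RNA genes, had 31.6 ± 1.03, 122 ± 23.3, 132 ± 47.9, 133 ± 1.38, and the helicase Ddx18 25.8 ± 2.02, 23.6 ± 5.87, 15.5 ± 10.03, 46.7 ± 0.297. Gnl3 (nucleostemin), a nucleolar GTPase first known from stem cells, had 19.3 ± 2.88, 69.2 ± 8.81, 56.5 ± 19.4, 38.4 ± 0.563. Nop16 had 40.6 ± 6.31, 153 ± 32.2, 147 ± 38, 137 ± 1.7, Ebna1bp2 46.1 ± 7.86, 63.3 ± 10.1, 36 ± 18.7, 102 ± 1.74 and Wdr74 15.2 ± 1.39, 20.3 ± 1.5, 26.9 ± 4.91, 26.1 ± 0.765. PFA-perfused means were the lowest for Nop2, Ddx21, Gnl3, Nop16 and Wdr74, and unperfused means for Ddx18 and Ebna1bp2.

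**Figure D4:**
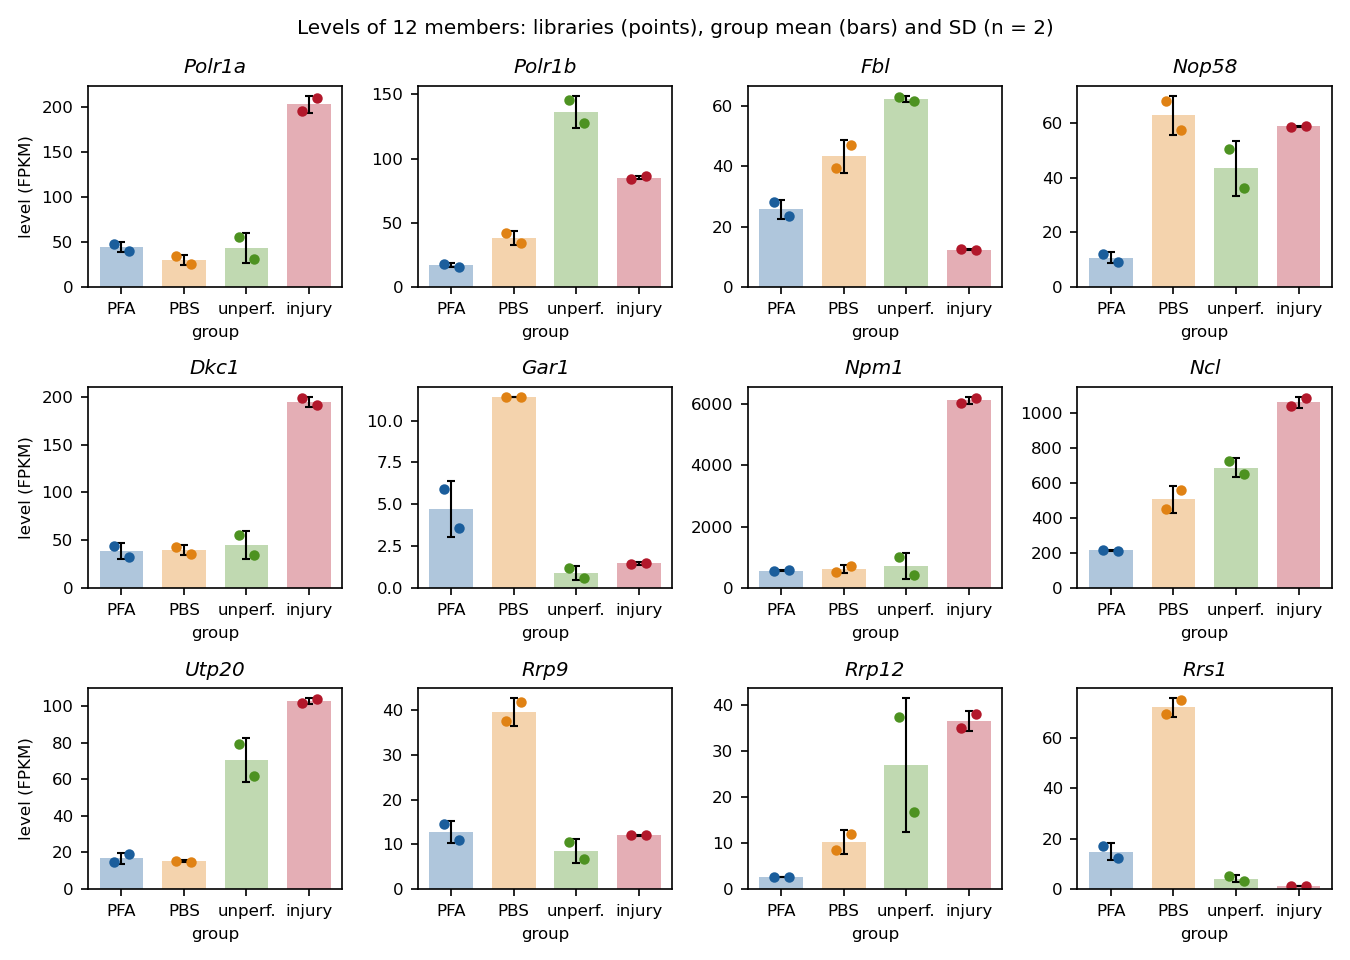
Bars give the group mean level in FPKM, error bars the SD (n = 2) and points the 2 libraries for 12 ribosome biogenesis genes; each panel has its own y axis, starting at 0. Npm1, Dkc1, Polr1a and Utp20 are highest in the injury-activated group, Polr1b and Fbl in the unperfused group, and Gar1, Rrp9, Rrs1 and Nop58 in the PBS-perfused group.

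The comparison of PBS-perfused with PFA-perfused cells asks which RNAs differ when the muscle of the same reporter line is fixed before the cells are isolated. Many ribosome biogenesis genes were higher in PBS-perfused cells and none was called lower. Limma called 23 of 38 higher and 0 lower, where 17.8% of all tested genes were called higher and 46.2% lower. At an unadjusted p under 0.05 the limma fit had 26 higher and 0 lower. The share of all tested genes at that threshold was not taken, so this count has no background. All 38 genes had a median log2 fold change of 1.09, beside -0.50 over the 12515 genes tested. After trimmed mean scaling, 32 were called higher and 0 lower, with a median of 1.65, beside 28.9% higher, 25.6% lower and a median of -0.01 over all tested genes. Both PBS-perfused libraries lay above both PFA-perfused libraries for 31 genes (background 23.8%), below for 2 (background 56.2%), and 5 overlapped. The largest differences were those of Nop58 at 2.44 (SE 0.24, adjusted p = 6.0e-05), Tsr1 at 2.35 (SE 0.27, adjusted p = 1.2e-04), Rrs1 at 2.23 (SE 0.24, adjusted p = 9.1e-05), Wdr43 at 2.08 (SE 0.35, adjusted p = 8.4e-04) and Nip7 at 1.92 (SE 0.28, adjusted p = 3.6e-04). All 3 box C/D proteins were called, with Nop56 at 1.75 and Fbl at 0.72, as were 8 of 11 small subunit and 6 of 14 large subunit factors, and 2 of 4 polymerase subunits. The Fbl call was lost without PFA-perfused replicate 2 (0.60). Among the 15 not called were Npm1, Dkc1, Utp20, Polr1a and the PeBoW genes Pes1, Bop1 and Wdr12.

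In the same comparison all 8 endothelial markers were called higher in PBS-perfused cells, summing to 107 to 151 FPKM against 9.7 to 16.4 in PFA-perfused cells. Myeloid and lymphoid markers summed to 31.9 to 39.96 against 7.03 to 10.1 FPKM, with 3 of 5 tested called higher and Itgam at 0 in both PFA-perfused libraries. Fibro-adipogenic markers summed to 225 to 436 against 456 to 831 FPKM, with 5 of 7 tested higher and 2 lower. Their part in the result was not tested. Cell division markers summed to 29.1 to 57.3 against 28.2 to 37.3 FPKM, with 1 of 8 called higher and 2 lower.

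Unperfused cells, set against PFA-perfused cells, also held more RNA of most genes that were called, and 3 genes went the other way. Limma called 20 of 38 higher and 3 lower, beside 17.4% and 56.3% of all tested genes. All 38 genes had a median log2 fold change of 0.79, beside -0.81 over the 12515 genes tested. With trimmed mean scaling, 34 were called higher and 2 lower, with a median of 1.88, beside 36% higher, 31.9% lower and a median of 0.05 over all tested genes. Libraries did not overlap for 22 genes above (background 22.4%) and 5 below (background 63.2%). The largest rises were those of Polr1b at 2.92 (SE 0.21, adjusted p = 4.4e-06), Rrp12 at 2.87 (SE 0.34, adjusted p = 5.6e-05), Wdr43 at 2.43 (SE 0.35, adjusted p = 1.9e-04), Tsr1 at 2.17 (SE 0.27, adjusted p = 7.8e-05) and Utp20 at 2.00 (SE 0.22, adjusted p = 3.9e-05). Rrs1 was lower, at -1.61 (SE 0.24, adjusted p = 2.3e-04) and Gar1, at -1.58 (SE 0.24, adjusted p = 2.8e-04); for Gar1 the fold change was 0.034 once GC content and transcript length were corrected for. Bop1 was called lower as deposited at -0.94 (SE 0.31, adjusted p = 0.0227), while trimmed mean scaling gave 0.22 and no call, and the call was also lost without PFA-perfused replicate 1 (-0.87), PFA-perfused replicate 2 (-1.0) or unperfused replicate 2 (-0.45). Of the polymerase subunits only Polr1b was called as deposited, and Polr1a, at -0.07 as deposited, was called after trimmed mean scaling at 1.10. This comparison shares its PFA-perfused libraries with the preceding one and with the next. Endothelial markers summed to 5.05 to 5.82 FPKM in unperfused cells, below the PFA-perfused sum, and none of 8 was called higher.

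Set against PFA-perfused cells, injury-activated cells had 30 of 38 genes called higher and 3 lower, beside 26.1% and 47.3% of all tested genes. All 38 genes had a median log2 fold change of 1.86, beside -0.48 over the 12515 genes tested. Under trimmed mean scaling, 35 were called higher and 2 lower, with a median of 2.60, beside 39.7% higher, 33.1% lower and a median of 0.11 over all tested genes. Both injury-activated libraries lay above both PFA-perfused libraries for 33 genes (background 34.5%) and below for 3 (background 56.7%). Npm1 was higher by 3.42 (SE 0.42, adjusted p = 7.8e-05), Rrp12 by 3.39 (SE 0.34, adjusted p = 1.9e-05), Mybbp1a by 2.94 (SE 0.27, adjusted p = 1.1e-05), Tsr1 by 2.78 (SE 0.27, adjusted p = 1.6e-05) and Heatr1 by 2.72 (SE 0.30, adjusted p = 3.3e-05). All 4 polymerase subunits were called higher, from 1.41 for Polr1c to 2.25 for Polr1b, as were the 6 genes whose promoter windows are printed above, from 2.94 for Mybbp1a down to 2.19 for Wdr43. Of these 6, Mybbp1a, Pes1 and Utp20 were not called in PBS-perfused against PFA-perfused cells. Nop2, Tsr1 and Wdr43 were not called in injury-activated against unperfused cells, and a link with the motif was not tested. Against PFA-perfused cells, Dkc1 was higher after injury by 2.33, Ncl by 2.29, Pes1 by 2.25 and Wdr12 by 1.84. The 3 genes called lower were Rrs1 at -2.71 (SE 0.24, adjusted p = 9.4e-06), Gar1 at -1.19 (SE 0.24, adjusted p = 0.00168) and Fbl at -1.0 (SE 0.20, adjusted p = 0.00161). The Fbl call was lost after trimmed mean scaling (-0.24, adjusted p = 0.275), and the Gar1 call with quantile normalization (-0.26) and with both GC content and length corrected for (-0.22), while Rrs1 kept its call in all 3. The 5 others were not called, namely Utp15, Rrp9, Nop14, Bysl and Ddx18.

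Cell division markers (Mki67, Top2a, Ccna2, Ccnb1, Cdk1, Mcm5, Pcna and Rrm2) summed to 1628 to 1696 FPKM in the injury-activated libraries, against 28.2 to 37.3 in PFA-perfused and 38.7 to 54.4 in unperfused libraries, and all 8 were called higher in each comparison with the injury-activated group. Myofibre markers summed to 158 to 201 FPKM there, against at most 44.5 in any other library, with 3 of 4 tested called higher. Myeloid and lymphoid markers summed to 54.3 to 58.1 FPKM, the highest of the 4 groups, and endothelial markers to 3.67 to 3.81 FPKM, the lowest. Their part in the differences of the injury-activated group was not tested.

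Unperfused and PBS-perfused cells, which are both unfixed, differed in some of these genes in both directions. Limma called 4 of 38 (10.5%) higher in unperfused cells and 8 (21.1%) lower, beside 13.1% and 36.5% of all tested genes. As deposited, both shares thus lay below those of all tested genes. All 38 genes had a median log2 fold change of -0.11, beside -0.36 over the 12515 genes tested. With trimmed mean scaling, 16 were called higher and 4 lower, with a median of 0.45, beside 24.5% higher, 22.9% lower and a median of -0.001 over all tested genes. The direction of the median thus depended on the scaling. Both unperfused libraries lay above both PBS-perfused libraries for 8 genes (background 20%) and below for 10 (background 52.1%), and 20 overlapped. The called rises were Utp20 at 2.14 (SE 0.22, adjusted p = 7.3e-05), Polr1b at 1.81 (SE 0.21, adjusted p = 1.5e-04), Rrp12 at 1.23 (SE 0.34, adjusted p = 0.0141) and Rrp1b at 0.91 (SE 0.24, adjusted p = 0.0121). The largest falls were Rrs1 at -3.85 (SE 0.24, adjusted p = 5.6e-06), Gar1 at -2.72 (SE 0.24, adjusted p = 3.2e-05), Rrp9 at -2.11 (SE 0.24, adjusted p = 1.4e-04), Noc4l at -1.44 (SE 0.27, adjusted p = 0.00191) and Nop56 at -1.25 (SE 0.37, adjusted p = 0.0189); of these 5, only the Nop56 call was lost after trimmed mean scaling (-0.69, adjusted p = 0.073). Polr1c, Nhp2 and Nop14 were the other 3 called lower as deposited, and none of the 3 was called after that scaling. The Rrp12 call was lost without PBS-perfused replicate 1 (1.0) or unperfused replicate 1 (0.68), and the Nop56 call without PBS-perfused replicate 1 (-1.07) or unperfused replicate 2 (-0.67). Without unperfused replicate 1 the genes called lower numbered 16, and without unperfused replicate 2 they numbered 4. The 2 groups differ in genotype as well as perfusion, and all 8 endothelial markers were called lower in unperfused cells; their part in the result was not tested.

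Injury-activated cells were next set against PBS-perfused cells. Limma called 18 of 38 genes higher after injury and 6 lower, beside 34.4% and 38.8% of all tested genes. All 38 genes had a median log2 fold change of 0.75, beside -0.11 over the 12515 genes tested. After trimmed mean scaling, 23 were called higher and 6 lower, with a median of 0.90, beside 38.1% higher, 37% lower and a median of -0.001 over all tested genes. Libraries lay apart for 23 genes above (background 42.3%) and 9 below (background 47.1%). Npm1 was higher by 3.32 (SE 0.42, adjusted p = 9.9e-05), Polr1a by 2.72 (SE 0.29, adjusted p = 3.4e-05), Utp20 by 2.69 (SE 0.22, adjusted p = 7.1e-06), Mybbp1a by 2.31 (SE 0.27, adjusted p = 5.2e-05) and Dkc1 by 2.28 (SE 0.28, adjusted p = 7.1e-05). Rrs1 was lower, at -4.94 (SE 0.24, adjusted p = 5.3e-07), Gar1, at -2.33 (SE 0.24, adjusted p = 2.7e-05), Fbl, at -1.72 (SE 0.20, adjusted p = 5.8e-05), Rrp9, at -1.64 (SE 0.24, adjusted p = 2.7e-04) and Nop14, at -1.27 (SE 0.24, adjusted p = 0.00126), and Gnl3, the remaining gene called lower, at -0.83. The Gnl3 call was lost without PBS-perfused replicate 2 (-0.70), injury-activated replicate 1 (-0.84) or injury-activated replicate 2 (-0.81). The 3 PeBoW genes were called higher, at 1.92 for Wdr12, 1.74 for Pes1 and 1.69 for Bop1. Box C/D scaffold genes were not called, with Nop56 at 242 and 188 FPKM in PBS-perfused and 175 and 169 in injury-activated libraries. All 8 endothelial markers were called lower in injury-activated than in PBS-perfused cells; their part in the result was not tested.

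The comparison of injury-activated with unperfused cells is between 2 unfixed wild type groups that differ by the injury. Limma called 18 of 38 genes higher after injury and 3 lower, beside 40.8% and 29.3% of all tested genes. The 47.4% of the ribosome biogenesis genes called higher lay near that background. All 38 genes had a median log2 fold change of 0.62, beside 0.17 over the 12515 genes tested. Under trimmed mean scaling, 16 were called higher and 7 lower, with a median of 0.24, beside 36.2% higher, 36.8% lower and a median of -0.06 over all tested genes. Libraries lay apart for 25 genes above (background 49.3%) and 5 below (background 39.8%). Higher genes were Npm1 at 3.22 (SE 0.42, adjusted p = 1.2e-04), Polr1a at 2.25 (SE 0.29, adjusted p = 1.1e-04), Dkc1 at 2.13 (SE 0.28, adjusted p = 1.1e-04), Mybbp1a at 2.10 (SE 0.27, adjusted p = 9.7e-05) and Bop1 at 1.97 (SE 0.31, adjusted p = 4.0e-04), followed by Nhp2 at 1.88, Wdr12 at 1.85 and Polr1c at 1.76. The 3 genes called lower were Fbl at -2.24 (SE 0.20, adjusted p = 1.2e-05), Rrs1 at -1.09 (SE 0.24, adjusted p = 0.00271) and Polr1b at -0.67 (SE 0.21, adjusted p = 0.0193). The Polr1b call was lost when unperfused replicate 1 or either injury-activated library was left out, with fold changes of -0.58, -0.65 and -0.68. Nop58, Nop16, Nip7, Ddx21, Wdr43, Tsr1, Nop2 and Ncl were not called.

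**Figure D5:**
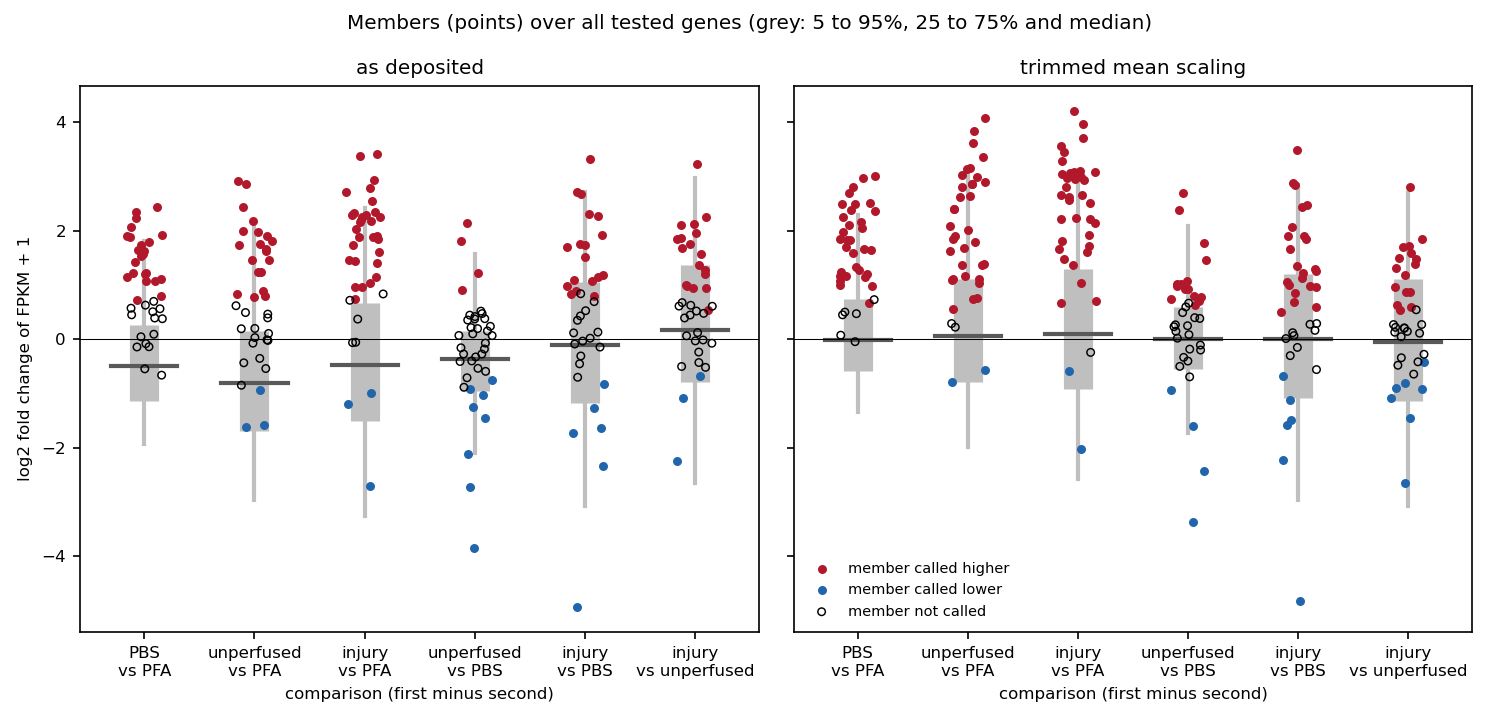
Points are the 38 ribosome biogenesis genes in each of the 6 comparisons (x axis), with the log2 fold change of FPKM + 1 on the y axis, as deposited at left and after trimmed mean scaling at right; filled points were called higher (red) or lower (blue), and grey marks show the 5 to 95% and 25 to 75% ranges and the median of all tested genes. The genes lie above the grey median in most cases in the 3 comparisons with PFA-perfused libraries, and closer to it in injury-activated against unperfused libraries.

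The comparisons of PBS-perfused with PFA-perfused and of injury-activated with unperfused libraries have no library in common. The first called 23 genes higher and the second 18, and 6 were called in both, which is 26.1% of the first set and 33.3% of the second. Over all tested genes, 449 were called higher in both, which is 20.2% of those called in the first and 8.8% of those called in the second. The 6 ribosome biogenesis genes were Polr1e, Nop56, Nhp2, Nolc1, Heatr1 and Noc4l, although the Nop56 call in the second was lost after trimmed mean scaling. Leaving out 1 library, the Nop56 call in the second was also lost without PFA-perfused replicate 1 (0.95), PFA-perfused replicate 2 (0.95), PBS-perfused replicate 1 (0.95), PBS-perfused replicate 2 (0.95), unperfused replicate 2 (0.36), injury-activated replicate 1 (0.92) or injury-activated replicate 2 (0.97). The Nolc1 call there was lost without unperfused replicate 2 (0.50), injury-activated replicate 1 (0.94) or injury-activated replicate 2 (0.93). The Heatr1 call there was lost without unperfused replicate 2 (0.53), injury-activated replicate 1 (1.03) or injury-activated replicate 2 (0.95). In the first, the Polr1e call was lost without PFA-perfused replicate 1 (0.90), PFA-perfused replicate 2 (0.69), PBS-perfused replicate 1 (0.73), PBS-perfused replicate 2 (0.86), injury-activated replicate 1 (0.80) or injury-activated replicate 2 (0.80), and the Nhp2 call without PFA-perfused replicate 1 (1.18), PFA-perfused replicate 2 (0.96) or PBS-perfused replicate 1 (0.89). Bysl, Wdr74 and Rrp1b were called higher in neither. Across the 38 genes the 2 sets of fold changes had a Spearman rho of -0.59, against -0.28 over all tested genes, as a description of genes that share libraries and depth within each comparison.

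A further 106 genes of the pathway from a list of 108 were tested in the same fit: other subunits and initiation factors of RNA polymerase I, other processing factors and the subunits of the RNA exosome, which trims the precursor. In PBS-perfused against PFA-perfused cells 40 (37.7%) were called higher and 13 (12.3%) lower, where all tested genes had 17.8% and 46.2%. In unperfused against PFA-perfused cells 30 (28.3%) were called higher and 37 (34.9%) lower, where all tested genes had 17.4% and 56.3%. For injury-activated against PFA-perfused cells 55 (51.9%) were called higher and 21 (19.8%) lower, where all tested genes had 26.1% and 47.3%. Between unperfused and PBS-perfused cells 11 (10.4%) were called higher and 33 (31.1%) lower, where all tested genes had 13.1% and 36.5%. Between injury-activated and PBS-perfused cells 44 (41.5%) were called higher and 21 (19.8%) lower, where all tested genes had 34.4% and 38.8%. Between injury-activated and unperfused cells 58 (54.7%) were called higher and 16 (15.1%) lower, where all tested genes had 40.8% and 29.3%. In all 6 comparisons the share called lower was below that of all tested genes. In each comparison with the PFA-perfused group it was larger than among the 38 genes, a difference that was not tested. Trimmed mean scaling gave 71 higher and 7 lower in the first (all tested genes 28.9% and 25.6%), 66 and 14 in the second (36% and 31.9%) and 79 and 14 in the third (39.7% and 33.1%).

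Rrn3, the factor that brings RNA polymerase I to its promoter, stood at 14.9 and 10.1 FPKM with PFA, 41.2 and 29.4 with PBS, 378 and 403 unperfused and 211 and 218 after injury. It was higher than in PFA-perfused cells by 4.88 (SE 0.26, adjusted p = 1.0e-06) in unperfused and by 4.02 (SE 0.26, adjusted p = 1.6e-06) in injury-activated cells. Like Polr1b, it was highest in the unperfused libraries. Of the 15 other subunits and initiation factors of RNA polymerase I tested, 2, Rrn3 among them, were called higher and 10 lower in unperfused than in PFA-perfused cells, beside 17.4% and 56.3% of all tested genes. Their median was -1.05, with Polr2e at -3.04, the termination factor Ttf1 at -1.94 and Znrd1 at -1.44, 3 genes chosen after their values were seen. After trimmed mean scaling 3 were called higher and 4 lower with a median of 0.03, and those 3 were still called lower. Nol9, a kinase of the large subunit pathway, stood at 8.31 and 8.81 FPKM with PFA, 16.8 and 19.7 with PBS, 123 and 136 unperfused and 5.68 and 5.33 after injury, and Gnl3l, a relative of Gnl3, at 17.6 and 19.3 FPKM with PFA, 27.2 and 20.3 with PBS, 148 and 195 unperfused and 168 and 187 after injury. Nol9 was lower in injury-activated than in unperfused cells, at -4.33 (SE 0.19, adjusted p = 5.6e-07), and so was Mdn1, a very large ATPase that strips factors from the precursor, at -2.58 (SE 0.23, adjusted p = 1.1e-05). Ppan, a large subunit factor, stood at 35.2 and 32.3 FPKM with PFA, 84.6 and 93.8 with PBS, 36.4 and 25.3 unperfused and 5.07 and 4.99 after injury and was lower in injury-activated than in PBS-perfused cells, at -3.90 (SE 0.22, adjusted p = 1.1e-06). Nol10, a small subunit factor, stood at 4.4 and 5.37 FPKM with PFA, 23.1 and 26.9 with PBS, 61.7 and 56.8 unperfused and 66.3 and 67.9 after injury and was higher than in PFA-perfused cells by 2.14 (SE 0.20, adjusted p = 5.0e-05) in PBS-perfused cells.

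Exosome subunits went in both directions in some comparisons and mostly together in others. In PBS-perfused against PFA-perfused cells 2 of 11 (18.2%) were called higher and 4 (36.4%) lower, near the 17.8% and 46.2% of all tested genes. In unperfused against PFA-perfused cells 1 (9.09%) was called higher and 8 (72.7%) lower, beside 17.4% and 56.3%. Trimmed mean scaling made these 3 higher and 5 lower, beside 36% and 31.9%. In injury-activated against unperfused cells 9 (81.8%) were called higher and 0 lower, beside 40.8% and 29.3%. Exosc6 stood at 17 and 7.58 FPKM with PFA, 33.3 and 75.2 with PBS, 2.1 and 1.98 unperfused and 0.953 and 1.12 after injury. Its PBS-perfused libraries were the highest and its injury-activated libraries the lowest, the order also seen for Rrs1. Exosc5 stood at 54.5 and 54.5 FPKM with PFA, 9.14 and 11.6 with PBS, 8.35 and 3.62 unperfused and 33.3 and 32.6 after injury, with PFA-perfused libraries highest, and was lower in PBS-perfused cells, at -2.29 (SE 0.31, adjusted p = 2.6e-04). Exosc8 stood at 27.2 and 24.6 FPKM with PFA, 18.4 and 9.91 with PBS, 11.9 and 7.86 unperfused and 131 and 138 after injury, with injury-activated libraries highest, and was higher there than in unperfused cells by 3.66 (SE 0.30, adjusted p = 7.5e-06). Exosc3 was lower in unperfused than in PFA-perfused cells, at -3.29 (SE 0.24, adjusted p = 4.0e-06), and Exosc7 lower in PBS-perfused than in PFA-perfused cells, at -1.79 (SE 0.32, adjusted p = 0.00122). Polr2e, a subunit common to the nuclear RNA polymerases, was higher in injury-activated than in unperfused cells by 3.26 (SE 0.29, adjusted p = 1.1e-05).

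Transcript length and base composition moved with some of these fold changes. Across the 38 genes, Spearman's rho between fold change and the length of the longest annotated transcript was 0.02 in PBS-perfused against PFA-perfused cells, 0.49 in unperfused and 0.49 in injury-activated against PFA-perfused cells, 0.49 in unperfused and 0.38 in injury-activated against PBS-perfused cells, and 0.03 in injury-activated against unperfused cells. With GC content it was -0.04, -0.35, -0.38, -0.22, -0.21 and -0.06 in the same order. Over all tested genes with an annotated transcript, rho with length was 0.095, 0.245, -0.008, 0.27, -0.052 and -0.212 in that order. With GC content it was -0.166, -0.225, -0.24, -0.152, -0.146 and -0.058. These are descriptions across genes of shared libraries. Gar1 is short, at 1271 bases with 57% GC, and Utp20 long, at 8821 bases with 46.8% GC. With both corrected for, 29 of 38 genes were called higher in PBS-perfused, 31 in unperfused and 33 in injury-activated cells than in PFA-perfused cells, where 24.9%, 30.2% and 35.7% of all tested genes were. In addition, 16 of the 38 genes, Dkc1, Bop1, Nhp2 and Mybbp1a among them, have exons that overlap a gene on the other strand (13 a protein-coding one), and use of strand in the counting is not given in the sources used here.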

How the data were processed

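A single table, with 24328 symbols in rows and 8 libraries in columns, was deposited by the authors, and its header names no unit. The deposited values were taken as FPKM, since they hold decimals and their totals differ between libraries. Per the submitters' processing notes, STAR 2.5.3a, StringTie 1.3.3 and R 3.4.1 were used with mm9, without roles or settings. The table holds no counts, so depth is unknown and no counting interval is given. The 12515 genes that reached 1 FPKM in 2 or more libraries were put on the scale of log2(FPKM + 1), unscaled otherwise; such fold changes understate those of low genes. A single limma 3.58.1 fit (R 4.3.3) with a variance trend held all 8 libraries, and 6 pairwise contrasts were tested two-sided, with Benjamini-Hochberg adjustment over all tested genes and calls at an adjusted p under 0.05. Scripts were tested on simulated data. Alternatives were trimmed mean scaling (trims 0.3 and 0.05), quantile normalization, removal of Rn45s and Malat1, a pseudocount of 0.1, no filter, 2-group fits, a replicate block and leaving out each library. Full values are given for the 2 genes of each role with the widest span, and for the 5 largest called rises and falls of a comparison, plus the 2 largest among other pathway genes. The genes and lists were chosen with earlier results of these data known. Promoters are RefSeq's on GRCm38.p6, and lengths, GC content and overlaps come from GENCODE M21, which differ from the build of the files.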

Additional observations from a re-analysis of the deposited data

How the results depend on the processing

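With each library left out in turn, the genes called higher and lower numbered 20 to 27 and 0 to 2 in PBS-perfused against PFA-perfused cells (2 lower without either unperfused library), 16 to 27 and 2 to 7 in unperfused against PFA-perfused (7 lower without unperfused replicate 1), and 25 to 32 and 3 to 3 in injury-activated against PFA-perfused. They numbered 3 to 7 and 4 to 16 in unperfused against PBS-perfused (7 higher and 4 lower without unperfused replicate 2, 16 lower without unperfused replicate 1, 5 lower without PBS-perfused replicate 1), 14 to 21 and 5 to 8 in injury-activated against PBS-perfused, and 14 to 25 and 2 to 6 in injury-activated against unperfused (6 lower without unperfused replicate 2). A group left with 1 library is assumed to vary like the others. The calls over all tested genes also moved with the library left out, so these counts alone do not describe the 38 genes. In unperfused against PBS-perfused cells, without unperfused replicate 1, the median was -0.49, beside -0.47 over all tested genes. Without unperfused replicate 2 it was 0.20, beside -0.27.

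Removing Rn45s and Malat1 gave 1 gene lower in PBS-perfused against PFA-perfused and 5 lower in injury-activated against unperfused cells. Of all tested genes, 49.9% and 32.5% were then lower, in that order. In unperfused against PFA-perfused cells 34 were higher after trimmed mean scaling, beside 36% of all tested genes. In unperfused against PBS-perfused cells trimmed mean scaling gave 16 higher and 4 lower and quantile normalization 7 higher, while 5 were lower both without the filter and in the fit of these 2 groups. Trimmed mean scaling called 24.5% of all tested genes higher and 22.9% lower there. Quantile normalization called 22.3% of them higher, above the 18.4% of the 38 genes. Of all genes, 21.3% were lower without the filter and 30.4% in the 2-group fit, beside 13.2% of the 38 in each. In injury-activated against unperfused cells 7 (18.4%) were lower with trimmed means and also with quantiles, beside 36.8% and 33.5% of all tested genes. The median of unperfused against PBS-perfused turned to 0.45 with trimmed mean scaling, 0.11 with quantile normalization, 0.02 without PBS-perfused replicate 1 and 0.20 without unperfused replicate 2, and ranged from -0.49 to 0.20 with each library left out. The cause of these changes was not tested.

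Chosen after seeing the data, correction for GC content and length gave 31 higher and 1 lower in unperfused against PFA-perfused, 8 higher in unperfused against PBS-perfused with a median of 0.12, and 9 lower in injury-activated against unperfused cells, and turned Gar1 to 0.034 and Bop1 to 0.36 in unperfused against PFA-perfused. Trimmed mean scaling turned Bop1 there to 0.22. With GC content and length corrected for, 30.2% of all tested genes were higher and 37.9% lower in unperfused against PFA-perfused cells. In unperfused against PBS-perfused cells 21.8% were higher, and in injury-activated against unperfused cells 35.2% were lower. Also added was trimmed mean scaling with unperfused replicate 2 left out, which gave 33 higher in unperfused against PFA-perfused with Bop1 at 0.38, 17 higher and 4 lower in unperfused against PBS-perfused with a median of 0.56, and 6 lower in injury-activated against unperfused cells. This setting leaves the unperfused group 1 library, so its counts alone do not describe the 38 genes. The medians of the 38 genes in these 3 comparisons were 1.94, 0.56 and 0.13, in that order. Over all tested genes they were -0.10, -0.03 and 0.01. The cause of these changes was not tested. Averaging the 2 injury-activated libraries into 1, also added, leaves that group 1 library, and some calls on named pairs were lost. The median was 1.865 against PFA-perfused cells, beside -0.52 over all tested genes. It was 0.75 against PBS-perfused cells, beside -0.157, and 0.62 against unperfused cells, beside 0.124.

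Replicate numbers name but do not pair the libraries: correlations of same-numbered deviations between groups were -0.05 to 0.12. With a replicate block, the counts in the 6 comparisons, in the order of the report, were 24 higher and 0 lower, 20 higher and 3 lower, 31 higher and 3 lower, 4 higher and 9 lower, 20 higher and 7 lower and 18 higher and 3 lower; of the calls on named pairs, only Utp20 in injury-activated against unperfused cells was lost (0.55, adjusted p = 0.0517). Over all tested genes the replicate block gave 18.3% higher and 46.8% lower, 17.8% and 56.8%, 26.7% and 47.9%, 13.6% and 37.6%, 35.1% and 39.2%, and 41.3% and 29.4%, in that order. Without counts, what depth limits could not be judged. Genes near 1 FPKM, such as Gar1 and Rrs1 after injury, are the least precise.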
